A study of Mus musculus with 4 samples.

Results

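Arginine metabolism and nitric oxide synthesis were described here through 7 mouse genes, Arg1, Arg2, Nos2, Ass1, Asl, Odc1 and Gch1. The members were all non-control probes whose gene name on the array was one of these symbols, which gave 10 probes of the 41174 on each array and 7 of the 19806 named genes. Ass1, Odc1 and Gch1 had 2 probes each and the other 4 genes 1 probe each. Naming through a RefSeq reference gave the same gene as the array's own name for all 10 probes. It went by accession or, where none matched, by the array's own symbol, in which case the names agree by construction.

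Cells labelled as dendritic cells (DCs), grown from the bone marrow of BALB/C mice, were measured with 1 Agilent array of 1 colour per culture. Each of 4 groups was thus 1 sample. Immature DCs (imDCs) were loosely adherent clusters collected on day 4 of a marrow culture. Its medium held GM-CSF at 10 ng/mL and IL-4 at 5 ng/mL, with L-glutamine at 2 mM and FCS at 10%. The imDCs were purified on beads against CD11c, an integrin of DCs. Mature DCs (maDCs) were purified imDCs kept for another 4 to 5 days with 10 ng/mL of bacterial lipopolysaccharide (LPS). GM-CSF, IL-4, L-glutamine and FCS are listed for the maDC group at the same concentrations as for imDCs. The cells named sDCs in the labels came from lineage-depleted haematopoietic progenitors grown on a monolayer of Sca-1+CD117-Lin- mesenchymal stem cells, with LPS from day 4, and had formed by day 9. The antibody-treated sDCs had a neutralizing antibody against IL-10 in the coculture in addition, at 10 µg/mL every 2 days. LPS was thus shared by the maDC, sDC and antibody-treated groups and was not given to imDCs. Its dose is listed for maDCs only, and equal doses cannot be assumed. The groups with LPS were also in culture for longer than imDCs. In any comparison with imDCs, LPS and time in culture cannot be told apart. The sources used here do not state which cytokines the coculture medium held or how the sDCs were taken off the stromal cells.

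Arginine is a substrate that 2 families of enzymes share. Arginases split it into ornithine and urea, and ornithine feeds the polyamines through ornithine decarboxylase and proline through other enzymes. Nitric oxide (NO) synthases turn arginine into NO and citrulline, need tetrahydrobiopterin as a cofactor, and argininosuccinate synthase and lyase rebuild arginine from the citrulline. In myeloid cells the inducible synthase Nos2 is known for its response to bacterial products with interferon-gamma, and Arg1 for its response to IL-4 and to other signals, and local use of arginine by myeloid cells is known to limit T cell responses.

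Levels are normalized log2 signals, that is log2 of the scanner's processed intensity minus the 75th percentile of that array, so that 0 is the level of the 75th percentile. A level is comparable between arrays for 1 probe and not between probes. With 1 array per group there was no spread between cultures, no test could be made, and differences were counted where they reached 2-fold, or 1 log2 unit. Probes spotted 10 times varied between spots by a median SD of 0.0474 to 0.0591 log2 units. From this the technical SD of a difference between arrays was put near 0.084. It rests on spots of the same array and leaves out culture, RNA, labelling and hybridisation. The scanner's own error for member probes well above background was 10.0% to 10.2% of the signal. Each array had 61.2% to 69.7% of its spots well above background and 0 saturated spots. The imDC array lay on another slide, scanned apart from the other 3, and in any comparison with imDCs group and slide cannot be told apart.

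The labelled cell types were set against defining markers. All 7 DC markers (Itgax, Flt3, Zbtb46, H2-Aa, H2-Ab1, Cd74 and Ccr7) were well above background on every array, but their summed signal, in multiples of the 75th percentile, was 277 in imDCs, 388 in maDCs, 8.69 in sDCs and 7.95 in antibody-treated sDCs. All 7 were at least 2-fold lower in sDCs than in imDCs, and also than in maDCs. The name sDC is therefore used here as a label and does not state a cell type. All 8 macrophage markers, among them Csf1r, Adgre1 and Mrc1, were at least 2-fold higher in sDCs than in imDCs, with sums of 33.6, 132, 242 and 216 in the order imDC, maDC, sDC and antibody-treated sDC. Stromal markers such as Col1a1 and Dcn, 7 of 8 listed, were at least 2-fold higher in sDCs than in imDCs and than in maDCs, while Thy1 was lower. The stromal sums were 108, 102, 169 and 93.5 in the same order, with Thy1 the brightest of the list in imDCs and maDCs. The sums in the same order were 1160, 84.0, 129 and 236 for 8 neutrophil markers and 7.84, 81.0, 0.492 and 0.495 for 6 mast cell and basophil markers. Although the neutrophil sum was larger in sDCs than in maDCs, 5 of the 8 markers were at least 2-fold lower there. Only 1, S100a8, was at least 2-fold higher, and the list median was -1.45. All 6 mast cell and basophil markers were at least 2-fold higher in maDCs than in imDCs. In sDCs 5 of them were at least 2-fold lower than in imDCs, while 1, Mcpt4, was 7.29-fold higher. For 5 eosinophil markers the sums were 26.6, 3.57, 0.0959 and 0.136. In a bulk sample, fewer cells of a type and less RNA per cell cannot be told apart, and the part of any of these cell types in the results on the arginine genes was not tested.

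Arg1, the cytosolic arginase of liver and of alternatively activated macrophages, had the widest measured range of levels over the 4 arrays among the 7 genes, setting aside Nos2, whose low end is only a bound. Its probe lay at chr10:24636194-24636253 (mm9, minus strand), from base 674 of the transcript as the array annotation counts it. It is shown because all Arg1 values rest on this 1 probe, and no base is marked.

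Arg1 probe: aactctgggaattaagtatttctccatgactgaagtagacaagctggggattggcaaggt

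The level of Arg1 was -0.78 in imDCs, 4.33 in maDCs, 6.78 in sDCs and 6.80 in antibody-treated sDCs. On the scanner's own scale the processed signal was 1158, 29893, 144094 and 147572 in the same order. The imDC array was the lowest and the sDC arrays, with and without antibody, were the highest, with the maDC array between them. Arg1 was 34.5-fold higher in maDCs than in imDCs, a log2 difference of 5.11, which put it at rank 52 from the highest among the 14118 genes with a value. It was 189-fold higher in sDCs than in imDCs (log2 difference 7.57, rank 30 of 15045 genes). It was 5.49-fold higher in sDCs than in maDCs (log2 difference 2.46, rank 449 of 14611 genes), on arrays of the same slide. With the antibody the log2 difference from sDCs was 0.01, under the technical SD of a difference.

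Arg2, the mitochondrial arginase, had levels of 0.66 in imDCs, 2.04 in maDCs, 1.73 in sDCs and 1.86 in antibody-treated sDCs. Its probe lay at chr12:80252972-80253031 (mm9, plus strand). All 3 arrays from cultures with LPS lay above the imDC array and close to each other. Arg2 was 2.60-fold higher in maDCs and 2.10-fold higher in sDCs than in imDCs, log2 differences of 1.38 and 1.07. When arrays were scaled on their median the same differences were 0.99 and 0.68, and with the normexp background correction the sDC difference was 0.94, all under 2-fold. Arg2 differed from maDCs by -0.31 in sDCs, where Arg1 differed by 2.46.

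Nos2, the inducible NO synthase, was not well above background in imDCs and was well above it on the 3 other arrays. Its probe at chr11:78773160-78773219 (mm9, plus strand) begins at base 3523 of the transcript and was spotted 10 times on each array, so that Nos2 was the one member with repeat spots. It is shown because these spots are the only repeat measurements of a member.

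Nos2 probe: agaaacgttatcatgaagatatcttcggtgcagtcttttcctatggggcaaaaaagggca

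In imDCs 0 of 10 Nos2 spots were well above background, and the mean level was -8.67 with an SD between spots of 0.48. The level was -1.20 in maDCs (spot SD 0.038), -1.78 in sDCs (spot SD 0.093) and -1.64 in antibody-treated sDCs (spot SD 0.071), with 10 of 10 spots well above background on each of these arrays. The maDC spots ran from -1.25 to -1.14 and lay above all sDC spots, which ran from -1.96 to -1.63. The log2 difference of sDCs from maDCs, -0.58, was of ordinary size, since the median size over all genes in that comparison was 0.58. How often the spots of other probes part in this way was not counted. The antibody spots ran from -1.78 to -1.54 and overlapped those of the sDC array. Repeat spots measure 1 RNA sample each time and are not replicates of a culture.

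Since the imDC side was dim, the differences from imDCs are bounds, set against the dimmest probe that was still well above background on that array. Nos2 was at least 67.8-fold higher in maDCs and at least 45.2-fold higher in sDCs than in imDCs, log2 bounds of 6.08 and 5.50. With the normexp background correction these bounds were 3.66 and 3.14 on the log2 scale, so at least 67.8-fold and 45.2-fold hold for the main processing only. Nos2 was 1.50-fold lower in sDCs than in maDCs (log2 difference -0.58), the direction opposite to that of Arg1 on the same 2 arrays. The antibody array differed from the sDC array by 0.14.

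**Figure D1:**
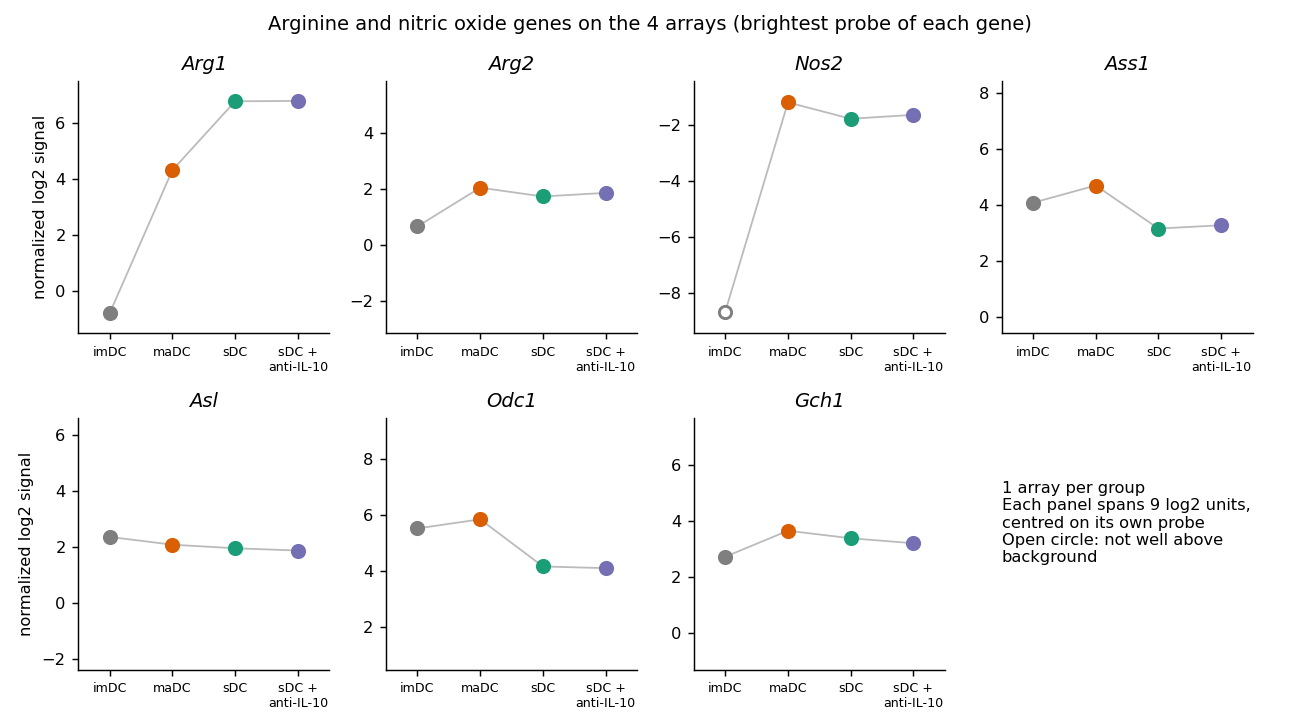
Normalized log2 signal (vertical axis) of the brighter or only probe of each gene on the imDC, maDC, sDC and antibody-treated sDC arrays (horizontal axis), 1 point per array and no error bar because each group is 1 array. Arg1 climbs from -0.78 in imDCs to 6.78 in sDCs, Nos2 is open (not well above background) in imDCs, and Asl stays between 1.87 and 2.36.

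**Figure D2:**
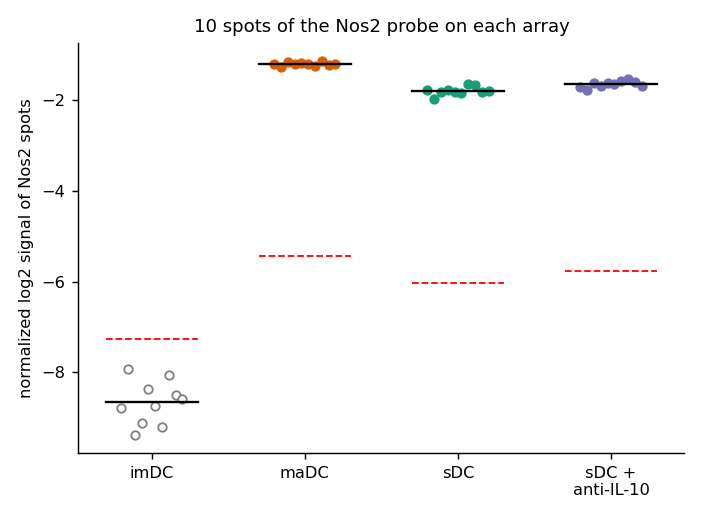
Normalized log2 signal (vertical axis) of the 10 spots of the Nos2 probe on each array, with the mean as a black line and the dimmest probe still well above background as a dashed red line. All imDC spots (open) lie under that array's line at -7.28, and all other spots lie between -1.96 and -1.14.

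Ass1 and Asl encode the 2 enzymes that rebuild arginine, argininosuccinate synthase and lyase. Ass1 was read by probes that overlap, at chr2:31374279-31375918 and chr2:31375899-31375957 (mm9, plus strand). The brighter probe spans 1640 bases of the genome with 60 bases of sequence, so it crosses an intron. Its last 20 bases, in capitals, are also the start of the other probe, and the probes are therefore not separate readings of the transcript.

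Ass1 brighter probe: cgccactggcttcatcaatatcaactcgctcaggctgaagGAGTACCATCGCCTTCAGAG

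The brighter Ass1 probe had levels of 4.09 in imDCs, 4.71 in maDCs, 3.17 in sDCs and 3.29 in antibody-treated sDCs. The other Ass1 probe had levels of 3.89, 4.50, 2.99 and 3.14 in the same order. Both put maDCs highest and sDCs lowest. Ass1 was 2.90-fold lower in sDCs than in maDCs by the brighter probe (log2 difference -1.54, against -1.51 by the other). The sDC level was 1.90-fold lower than that of imDCs (log2 difference -0.92), which is within 2-fold, but the difference was -1.12 after quantile normalization, -1.32 with scaling on the median and -1.16 in the authors' deposited values. The maDC level was 0.61 above that of imDCs, and the antibody array differed from the sDC array by 0.12.

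Asl was the member with the narrowest range. Its levels were 2.36 in imDCs, 2.08 in maDCs, 1.95 in sDCs and 1.87 in antibody-treated sDCs, a span of 0.49 log2 units. The probe covers 586 bases at chr5:130487964-130488549 (mm9, minus strand) and so also crosses an intron. No Asl difference was past 2-fold under any setting tried, and the antibody difference of -0.08 was under the technical SD.

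Odc1, ornithine decarboxylase, makes putrescine and is the rate-limiting step of polyamine synthesis. Its probes lay 2896 bases apart, the brighter at chr12:17557755-17557813 and the other at chr12:17554799-17554858 (mm9, plus strand). The array annotation puts the brighter one from base 1993 of the transcript and the other from base 729. The latter is shown because the probes gave different sizes of difference.

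Odc1 other probe: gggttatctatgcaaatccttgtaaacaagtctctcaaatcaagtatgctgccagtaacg

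The brighter Odc1 probe had levels of 5.54 in imDCs, 5.86 in maDCs, 4.18 in sDCs and 4.12 in antibody-treated sDCs. The other probe had levels of 0.69, -0.09, -2.38 and -2.20. Both put the sDC arrays lowest. Odc1 was 3.21-fold lower in sDCs than in maDCs (log2 difference -1.68, against -2.29 by the other probe) and 2.56-fold lower than in imDCs (-1.36 against -3.08). Between maDCs and imDCs the probes had opposite signs, 0.33 and -0.79, and the brighter probe itself was at -0.09 after quantile normalization and -0.06 with scaling on the median. The antibody differences from sDCs were -0.06 and 0.19.

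Gch1, GTP cyclohydrolase, is the first enzyme of tetrahydrobiopterin synthesis. The brighter probe lay at chr14:47788897-47788956 and the other at chr14:47773797-47773856 (mm9, minus strand), 15040 bases apart, from bases 491 and 2477 of the transcript. The brighter one is shown as the source of the values in the member counts.

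Gch1 brighter probe: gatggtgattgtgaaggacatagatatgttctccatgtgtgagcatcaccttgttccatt

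The brighter Gch1 probe had levels of 2.74 in imDCs, 3.67 in maDCs, 3.40 in sDCs and 3.22 in antibody-treated sDCs. The other probe had levels of -1.86, -0.64, 0.98 and 0.77. Both put imDCs lowest, but the brighter probe put maDCs highest and the other put sDCs highest. Between sDCs and maDCs the differences were -0.27 and 1.62, and between sDCs and imDCs they were 0.66 and 2.84. The gap of 2.18 log2 units between the probes in the latter comparison was matched or exceeded by 4.04% of the 3936 genes with 2 measured probes. The direction of Gch1 between sDCs and maDCs therefore depends on the probe. The Odc1 gap in the comparison of sDCs with imDCs, 1.72, was matched or exceeded by 8.31% of the same genes, and the Ass1 gap there was 0.027.

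**Figure D3:**
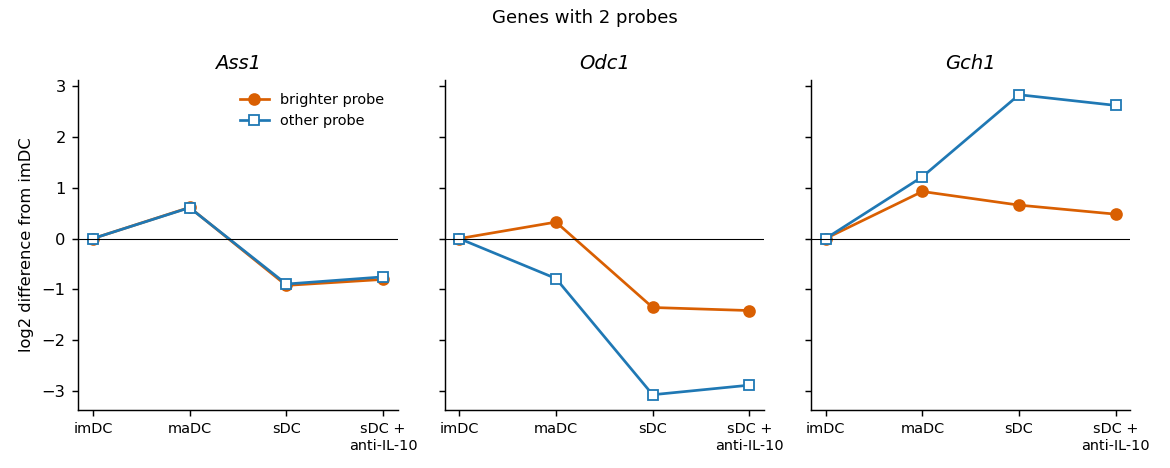
Log2 difference from imDCs (vertical axis) on each array (horizontal axis) for the brighter probe (filled circles) and the other probe (open squares) of Ass1, Odc1 and Gch1, 1 array per group. The Ass1 probes run together, both Odc1 probes are lowest on the sDC arrays, and the Gch1 probes part at 0.66 and 2.84 in sDCs.

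In the order of levels within each gene, several neighbours lay closer than the technical SD of 0.084. These were sDCs and antibody-treated sDCs for Arg1, for Asl and for the brighter Odc1 probe. For the brighter or only probes of Arg2, Nos2, Ass1 and Gch1 the same 2 arrays differed by 0.12 to 0.18 in size, the other Gch1 probe differed by -0.21, and no spread between cultures is known for any of them. Lying past the technical SD does not make these differences resolved, since that SD leaves out variation between arrays.

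Counted together, 3 of the 7 members were at least 2-fold higher in maDCs than in imDCs (Arg1, Arg2 and Nos2), 0 were lower, and 4 lay within 2-fold. Over all 14118 genes with a value, 32.3% were past 2-fold in that comparison, with 21.6% higher and 10.8% lower. The members' median difference was 0.93 against 0.18 over all genes. In sDCs against imDCs, 3 members were higher (Arg1, Arg2 and Nos2) and Odc1 was lower, against 41.5% of 15045 genes past 2-fold, 25.4% of them higher and 16.1% lower as shares of all genes. The median there was 0.66 for the members and 0.21 for all genes. In sDCs against maDCs, 1 member was higher (Arg1) and 2 were lower (Ass1 and Odc1), against 31.0% of 14611 genes past 2-fold, 14.2% higher and 16.8% lower, and the medians were -0.31 and 0.03. Counts of 7 genes are coarse, and these were not read as different from the background shares. The sizes for Arg1 and Nos2 were beyond those of 95% of all genes, which had differences below 2.49 in maDCs and below 2.99 in sDCs against imDCs. The comparisons share arrays and are not independent of each other.

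The antibody-treated sDCs were set against sDCs, which shared a slide. No control antibody is listed, so neutralizing IL-10 and adding an antibody to the coculture cannot be told apart. None of the 7 members was past 2-fold (0 higher and 0 lower), and 2.12% of all 14399 genes were, 0.861% higher and 1.26% lower. The brighter probes' differences ran from -0.18 for Gch1 to 0.14 for Nos2, with a median of 0.01 against -0.03 over all genes. On the same pair of arrays, 5 of 8 neutrophil markers were at least 2-fold higher with the antibody, with a list median of 1.13, and the 8 stromal markers had a median of -0.89 with 0 past 2-fold. How far the values would vary between cultures is not known from 1 array per group.

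**Figure D4:**
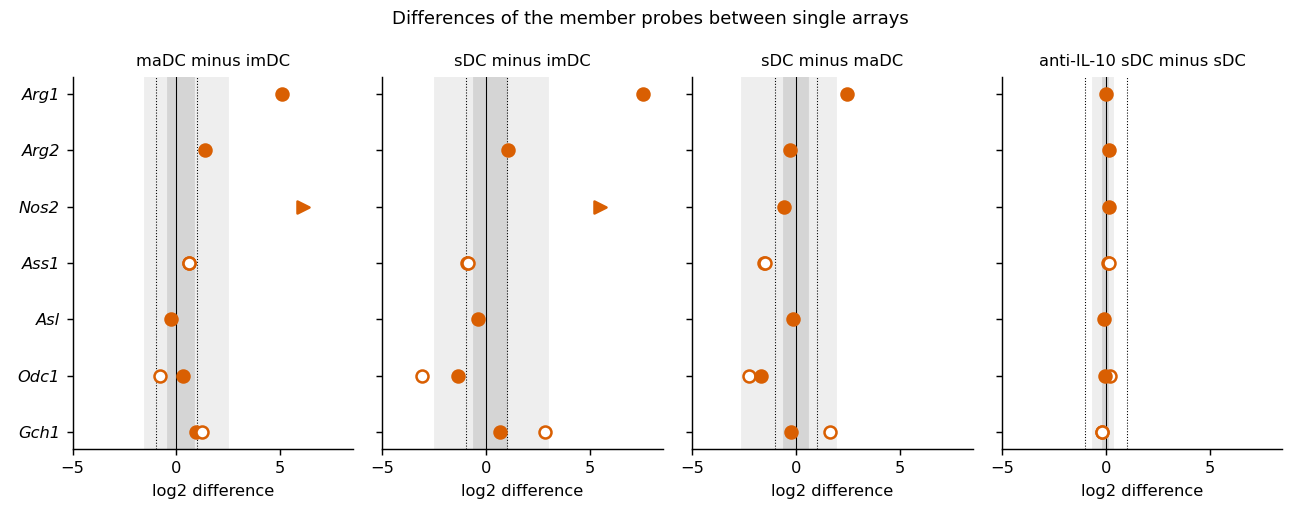
Log2 difference (horizontal axis) of every member probe in the 4 comparisons, with filled circles for the brighter or only probe, open circles for the other probe and triangles for bounds. Dark and light grey bands hold the middle 50% and 90% of all genes and dotted lines mark 2-fold, and Arg1 and Nos2 lie beyond the light band in both comparisons with imDCs while all probes lie within 2-fold in the antibody comparison.

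Promoter sequence was looked up for all 7 genes in a RefSeq table of the build GRCm38.p6, which matched Ass1, Odc1 and Gch1. The 250 bases before the start of Ass1 and of Odc1 are shown because both genes were lower in sDCs than in maDCs. Letters were searched on both strands for 10 motifs, and matches to the GC box (GGGCGG) and the E-box (CACGTG) are in capitals, with CCGCCC for a GC box on the other strand. A match describes the letters and says nothing about whether a factor binds.

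Ass1, chr2:31470020-31470269, plus strand: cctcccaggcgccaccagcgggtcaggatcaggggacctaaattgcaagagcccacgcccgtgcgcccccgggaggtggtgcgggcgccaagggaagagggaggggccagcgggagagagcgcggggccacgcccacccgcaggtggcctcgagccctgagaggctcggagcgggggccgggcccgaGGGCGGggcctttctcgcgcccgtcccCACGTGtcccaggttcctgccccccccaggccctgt

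Odc1, chr12:17544623-17544872, plus strand: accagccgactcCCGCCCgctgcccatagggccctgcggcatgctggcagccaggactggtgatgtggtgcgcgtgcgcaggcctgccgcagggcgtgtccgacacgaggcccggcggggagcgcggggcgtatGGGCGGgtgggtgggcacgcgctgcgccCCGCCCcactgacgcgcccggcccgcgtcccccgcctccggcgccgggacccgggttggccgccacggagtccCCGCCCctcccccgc

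Ass1 held 1 GC box at -63 to -58 and 1 E-box at -36 to -31, counted from the start of the gene. The E-box holds the shorter letters ACGTG, the core of hypoxia response elements, within it. Odc1 held 4 GC boxes, starting at -238, -116, -88 and -15. Of 32851 windows of 250 bases in the table, 32.7% held a GC box, 6.02% an E-box and 16.6% the letters ACGTG. The Gch1 window held a match to the NF-kB consensus at -10 to -1, as did 7.25% of windows, besides GC boxes starting at -118 and -105 and a TATA box (TATAAA) on the other strand from -188, which 12.4% of windows held.

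Around the 7 members, 69 further genes of the pathway and its regulators were on the array, in lists of transport and mitochondrial urea cycle, NO synthases and partners, tetrahydrobiopterin, polyamines, proline and creatine, and regulators of Arg1 or Nos2. In maDCs against imDCs 19 of 65 with a value were at least 2-fold higher and 9 lower, beside 21.6% and 10.8% of all genes. After quantile normalization 14 were higher and 14 lower, and with scaling on the median 10 and 17. In sDCs against imDCs 15 of 66 were higher and 16 lower, beside 25.4% and 16.1% of all genes. In sDCs against maDCs 7 of 66 were higher and 14 lower, beside 14.2% and 16.8%. With the antibody 0 of 63 were higher and 1 was lower than in sDCs, beside 0.861% and 1.26%. These all-gene shares are the background of every list count that follows.

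In the transport and urea cycle list, 5 of 10 genes with a value were at least 2-fold lower in sDCs than in maDCs, beside 16.8% of all genes. The list median was -1.13 against 0.03 over all genes. Slc7a2, a cationic amino acid transporter of activated macrophages, had levels of -2.004 in imDCs, 2.30 in maDCs, -3.02 in sDCs and -3.24 in antibody-treated sDCs. It was 19.7-fold higher in maDCs than in imDCs and 39.9-fold lower in sDCs than in maDCs, and the maDC level was the highest of the 4. Slc7a3, of the same transporter family, was 6.21-fold lower in sDCs than in maDCs and 3.91-fold lower than in imDCs, and Slc7a1 was 4.16-fold lower in sDCs than in imDCs, although another Slc7a1 probe gave a log2 difference of -0.29 there. Nags, which makes the activator of the urea cycle's first enzyme, was 6.88-fold higher in maDCs than in imDCs and at least 82.6-fold lower in sDCs than in maDCs. The log2 bound of -6.37 for Nags in sDCs against maDCs was -4.27 with the normexp correction and -3.42 by the other probe, which gave 1.87 in maDCs against imDCs. Slc25a2, a mitochondrial ornithine carrier, was 3.87-fold higher in sDCs than in imDCs, the one gene of the list higher there. In maDCs it was 2.35-fold higher than in imDCs but at 0.87 on the log2 scale after quantile normalization. Cps1 and Otc, the first enzymes of the urea cycle in liver, were not well above background on any of the 4 arrays. Of the 10 genes with a value, 4 were higher and 0 lower in maDCs than in imDCs, beside 21.6% and 10.8% of all genes (2 and 1 after quantile normalization, 2 and 2 with scaling on the median). In sDCs 1 was higher and 5 were lower than in imDCs, beside 25.4% and 16.1%, and 1, Slc7a7, was higher than in maDCs, beside 14.2%.

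Among NO synthases and partners, the dimethylarginine hydrolases Ddah1 and Ddah2, which degrade inhibitors of NO synthases, were highest in sDCs. Ddah1 had levels of -3.47 in maDCs, -1.09 in sDCs and -1.90 in antibody-treated sDCs and was not well above background in imDCs. It was 5.21-fold higher in sDCs than in maDCs and at least 69.3-fold higher than in imDCs, and it was at least 13.3-fold higher in maDCs than in imDCs. With the normexp correction the log2 differences of Ddah1 were 3.54 for sDCs and 1.90 for maDCs against imDCs and 1.63 between sDCs and maDCs. Its other probe gave a log2 difference of 2.16 between sDCs and maDCs. Ddah2 had levels of -1.08, 0.20, 2.53 and 2.27 over imDCs, maDCs, sDCs and antibody-treated sDCs and was 5.04-fold higher in sDCs than in maDCs and 12.2-fold higher than in imDCs. Nos1ap, an adaptor of the neuronal synthase, was at least 2.18-fold higher in sDCs than in maDCs, but at 0.49 on the log2 scale with the normexp correction. The subunits of soluble guanylate cyclase, the receptor of NO, were lower in maDCs than in imDCs, Gucy1a1 by 2.68-fold and Gucy1b1 by 2.57-fold. Gucy1b1 was the one gene of the 63 past 2-fold with the antibody, 2.10-fold lower than in sDCs by the brighter probe (log2 difference -1.07) and -1.22 by the other. With the normexp background correction the Gucy1b1 antibody difference was -0.68 and that of maDCs from imDCs -0.87, and Gucy1a1 was at -0.78 in maDCs against imDCs. In all, 2 of 8 genes of the list were higher and 3 lower in maDCs than in imDCs, 2 of 9 higher in sDCs than in imDCs with 0 lower, and 3 of 9 higher and 1 lower in sDCs than in maDCs.

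Most of the tetrahydrobiopterin genes beside Gch1 lay within 2-fold in each comparison. Of 6 genes, 1 was higher in maDCs than in imDCs, Pcbd1 by 2.10-fold, which was within 2-fold after quantile normalization (0.80 on the log2 scale). In sDCs 0 of the 6 were higher and 2 were lower than in imDCs, beside 25.4% and 16.1% of all genes. Among the latter was Pts, which makes an intermediate of the cofactor. It was 2.46-fold lower in sDCs than in imDCs, and its other probe gave a log2 difference of -1.11. In sDCs against maDCs 1 was lower, Pcbd1 by 2.05-fold, or -0.89 on the log2 scale with the normexp correction.

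In the polyamine list 3 of 15 genes with a value were higher and 2 lower in maDCs than in imDCs, near the 21.6% and 10.8% of all genes, and the list median was -0.19 against 0.18. In sDCs 3 of 16 were higher and 4 lower than in imDCs, beside 25.4% and 16.1%. Smox, spermine oxidase, had levels of 1.27 in imDCs, 3.31 in maDCs, 3.19 in sDCs and 3.13 in antibody-treated sDCs and was 4.11-fold higher in maDCs and 3.78-fold higher in sDCs than in imDCs, and its other probe gave larger log2 differences of 3.18 and 3.29. Srm, spermidine synthase, had levels of 4.35, 2.81, 2.05 and 1.92 in that order and was 2.89-fold lower in maDCs and 4.93-fold lower in sDCs than in imDCs. Eif5a, the translation factor modified with spermidine, was 3.09-fold lower in sDCs than in imDCs. Azin2, an antizyme inhibitor, was 2.58-fold higher in maDCs than in imDCs (0.98 on the log2 scale with scaling on the median). It was 5.89-fold lower in sDCs than in maDCs and was the only one of 15 genes with a value past 2-fold between them.

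Prodh, proline dehydrogenase, had levels of 1.995 in imDCs, -0.27 in maDCs, -1.88 in sDCs and -2.15 in antibody-treated sDCs. It was 14.6-fold lower in sDCs than in imDCs and 3.05-fold lower than in maDCs. Aldh18a1, which starts proline synthesis from glutamate, was 3.07-fold lower in maDCs and 4.09-fold lower in sDCs than in imDCs. Gamt, the methyltransferase that completes creatine, was 4.72-fold higher in sDCs than in maDCs and 4.68-fold higher than in imDCs. Pycr1, which completes proline, was at least 2.11-fold lower in maDCs than in imDCs, but at -0.23 on the log2 scale with the normexp correction. In this list of 9, 0 were higher and 3 lower in maDCs than in imDCs, 2 higher in sDCs than in imDCs with 3 lower, and 1 each way in sDCs against maDCs.

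Among 17 regulators of Arg1 or Nos2, 9 were higher and 1 was lower in maDCs than in imDCs, beside 21.6% and 10.8% of all genes. The list median was 1.102, against 0.18 over all genes (0.71 with scaling on the median, where 6 were higher and 2 lower). Ifng, whose product interferon-gamma induces Nos2, was 117-fold higher in maDCs than in imDCs and at least 104-fold lower in sDCs than in maDCs, where it was not well above background. With the normexp correction the Ifng log2 differences were 5.10 and -4.75, and the other probe gave a bound of -5.12 in sDCs against maDCs. Nos2 was 1.50-fold lower in sDCs than in maDCs on the same 2 arrays, and a relation between Ifng and Nos2 was not tested. Irf8, a myeloid transcription factor, was 5.66-fold higher in maDCs and 3.14-fold higher in sDCs than in imDCs, where its other probe gave a log2 difference of 0.85 for sDCs. Pparg, a nuclear receptor linked to alternative activation, had levels of 3.90, 0.44, -2.65 and -2.75 over imDCs, maDCs, sDCs and antibody-treated sDCs. Its log2 difference from imDCs was -3.46 in maDCs and -6.55 in sDCs. The order of the Pparg levels was the reverse of that of Arg1, with the lowest levels on the arrays where Arg1 was highest. For Arg1 the sDC and antibody-treated sDC arrays differed by only 0.01, under the technical SD, so their order is not resolved. A relation between Pparg and Arg1 was not tested. Il4ra, the receptor chain for IL-4, was 4.25-fold higher in sDCs than in imDCs, and Nfkb1, a subunit of NF-kB, was 5.37-fold lower in sDCs than in maDCs. That is a log2 difference of -2.42 for Nfkb1, and its other probes gave -1.49, -1.71 and -2.09. In sDCs 7 of 16 regulators were higher and 2 lower than in imDCs, beside 25.4% and 16.1% of all genes. Against maDCs 2 of 17 were higher and 5 lower, beside 14.2% and 16.8%.

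**Figure D5:**
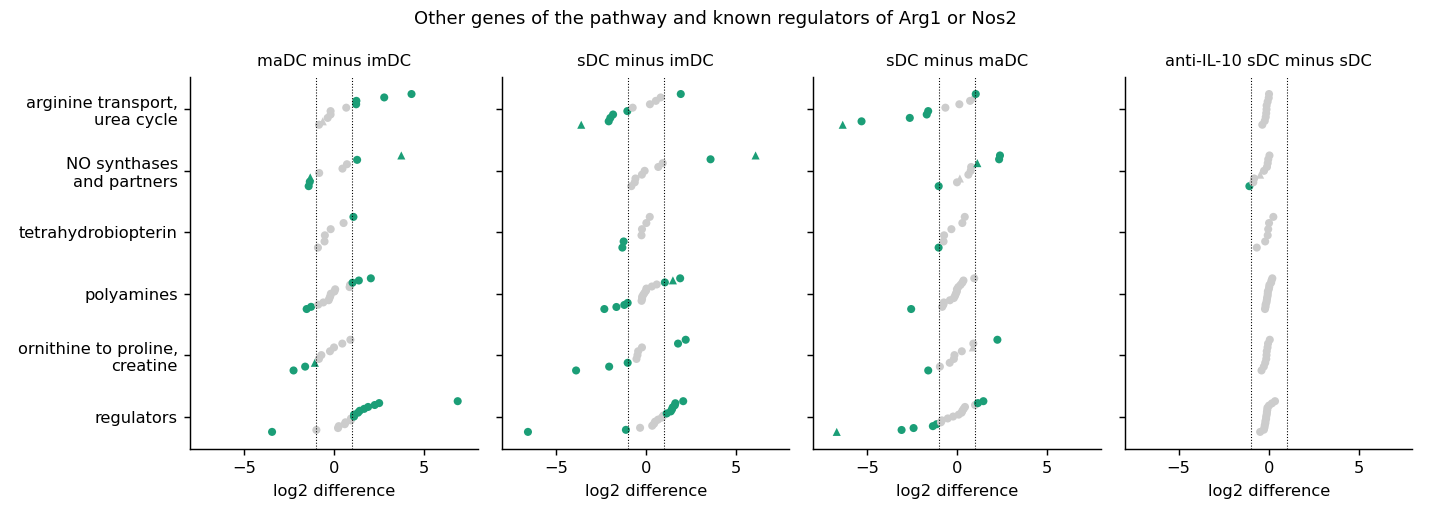
Log2 difference (horizontal axis) of each further pathway gene, by list (vertical axis), in the 4 comparisons, with genes past 2-fold in green, the rest in grey, bounds as triangles and dotted lines at 2-fold. Slc7a2 and Nags lie far to the left in sDCs against maDCs, and 1 gene, Gucy1b1, is past 2-fold with the antibody.

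The genes most like each member over the 4 arrays were found by the root mean square difference between profiles centred on their own mean, among genes well above background on the same arrays. For Arg1, 12954 genes could be compared, and the nearest were Prss46 at 0.19 log2 units, Pltp at 0.30 and Pmp22 at 0.34. For Nos2, 66 genes were also dim only in imDCs, and the nearest were Rnf182 at 0.43, Obsl1 at 0.70 and Smtnl2 at 0.83. The imDC values of Nos2 and of these genes are not well above background and were set at the higher of their own signal and the floor used for the bounds, so the distances and their order rest in part on that floor. The nearest gene was Efhd1 for Arg2 (0.034), Runx2 for Ass1 (0.012), Atp13a1 for Asl (0.020), Pde7a for Odc1 (0.0065) and Mbtps1 for Gch1 (0.017). These values describe 4 arrays and no more.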

How the data were processed

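RNA (0.5 µg per sample, dye Cy3) of 4 cultures was hybridised to 4 arrays, 1 per group. The authors deposited scanner tables with a background-subtracted processed intensity per spot, made with Agilent Feature Extraction 10.5.1.1 per the file headers (9.1 per the submitters' processing notes), with probe positions in mm9. The authors also deposited a table whose values tracked the log2 intensity of each array across probes (correlation 0.997 to 1.00). Its medians were 6.31 to 6.32 on the 4 arrays, and it was used as an alternative. The sources used here do not state how that table was made.

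From the intensities, log2 was taken and each array's 75th percentile subtracted. Control spots and outlier-marked spots (76 to 148 per array, none of a member) were left out, spots of a probe were averaged, and a probe was called well above background if the scanner marked 50% or more of its spots so. A gene was represented by its probe of highest mean. Probes were named by accession (25263), symbol (6233) or synonym (1603) in a RefSeq table of GRCm38.p6, and 8075 had no match. A probe dim on 1 array gave a bound and on both no value. Each fold given as at least is a bound of the main processing and can be smaller under another setting. The genes named are all members, and per comparison up to 3 genes of each list with the largest differences past 2-fold, except 1 gene that is not reported here. Cps1, Otc, Slc7a7, Slc25a2 in sDCs and the order of Pparg levels were chosen after their values were seen. Limma was not fitted, since 1 array per group leaves no residual degrees of freedom. The difference and bound script was tested on simulated data. The members and lists were chosen with earlier results of these data known. Python 3.11.15, R 4.3.3 and limma 3.58.1 (normexp, offset 50) were used.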

Additional observations from a re-analysis of the deposited data

How the results depend on the processing

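Each member difference was recomputed under 8 other settings. Of 28 differences, 10 were past 2-fold, and 8 of these stayed past it in the same direction under every setting that gave a value. The exceptions were Arg2 in maDCs and in sDCs against imDCs (lowest 0.99 and 0.68, scaling on the array median). Of the differences within 2-fold, 3 passed it under some setting: Ass1 in sDCs against imDCs (to -1.32), and Gch1 in maDCs and sDCs against imDCs with all probes averaged (1.07 and 1.75). Another sign appeared under some setting for 3, namely Odc1 in maDCs against imDCs (to -0.23) and with the antibody (0.06), and Gch1 in sDCs against maDCs (0.67). The Nos2 differences from imDCs ran from 3.66 to 7.47 for maDCs and from 3.14 to 6.89 for sDCs, with no value where both arrays had to be above background. Pathway genes past 2-fold with the antibody numbered 0 with the normexp correction and 1 otherwise. Of 46 differences of named pathway genes, 36 stayed past 2-fold in the same direction under every setting with a value and 10 did not.

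Over all genes, the share of differences past 2-fold that were higher was 66.7% in maDCs against imDCs, 55.3% after quantile normalization, 43.2% with scaling on the median and 78.2% with no filter on dim probes. In sDCs against imDCs it was 61.2%, and 51.9% after quantile normalization and 43.0% with scaling on the median. The median over all genes moved from 0.18 to -0.20 in maDCs and from 0.21 to -0.18 in sDCs against imDCs with the latter. No paired analysis was possible because each group was 1 array and the labels carry no replicate numbers. No replicate could be left out for the same reason. Signal over background limits Nos2 in imDCs to a bound.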
